A study of Mus musculus with 6 samples.

Results

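The collagen gene family was described in ventricles of mice on western diet (WD) that received Tributyrin or vehicle. Its members are the protein-coding genes with a mouse collagen chain symbol (*Col*, a type number, the letter a and a chain number), found in the count tables by their Ensembl identifiers in the GENCODE M21 annotation. There were 43 such genes among the 54232 genes listed for each library. By the structure of the collagens they encode, 11 were classed as fibrillar, 6 as basement membrane, 9 as FACIT (fibril-associated collagens with interrupted triple helices) and 17 as others.

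Collagens are secreted proteins in which chains wind around each other into a triple helix. Fibrillar collagens form the tensile fibres of the interstitium, type IV collagen forms the sheet-like network of the basement membrane around cardiomyocytes and vessels, and FACIT collagens sit on the surface of fibrils. In the heart the interstitial chains are made mainly by fibroblasts, while endothelial and mural cells and fibroblasts all contribute to basement membranes, and an excess of interstitial collagen stiffens the ventricle.

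All 6 mice were wild-type C57BL/6J mice that had received WD for 15 weeks. The Tributyrin group (n = 3) was then given Tributyrin, a triglyceride of butyrate, by needle feeding at 5 g/kg body weight in an intermittent schedule for 3 weeks. The vehicle group (n = 3) received vehicle on that schedule, and the labels name this control treatment PBS. Each library was made from the ventricle RNA of 1 numbered mouse and sequenced as stranded mRNA. The age and sex of each mouse are not in the labels, and no group on normal chow was analysed here.

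The libraries held 20369746 to 32734485 counts on genes, of which 23.6% to 26.5% with vehicle and 25.9% to 28.8% with Tributyrin were mitochondrial. The ventricular light chain *Myl2* was at 150750.5 or more normalized counts in every library. Atrial transcripts were unequal among the libraries: the summed level of 5 atrial markers was 4786, 4539 and 1414 normalized counts in vehicle 1, 2 and 3 and 815, 1687 and 1219 in Tributyrin 1, 2 and 3. Vehicle 1 and vehicle 2 stood above all other libraries in this sum. In vehicle 3 the marker *Nppa* alone made up 1046 of the 1414. An unadjusted p under 0.05 was reached by 4 of the 5 atrial markers, all lower with Tributyrin (against 2.28% of all genes tested). None of the 5 was at 0 in any library. All 6 libraries carried the Y-linked *Ddx3y* at 1802 to 2241 normalized counts and *Xist* at no more than 6.24.

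The comparison asked whether collagen transcripts differed between Tributyrin and vehicle treated hearts. Of the 43 collagen genes, 30 passed the filter on low counts and were tested. The fitted log2 fold change (Tributyrin over vehicle) was below 0 in 25 of these 30 genes, against 50.4% of all 14133 genes tested, and its median was -0.30, against -0.00129 over all genes tested. With Benjamini-Hochberg adjustment over all genes, none of the 30 passed a false discovery rate (FDR) of 10% in edgeR, where 0.0% of all genes were called, and each had an adjusted p of 0.999. An unadjusted p under 0.05 was reached by 12 of the 30, all lower with Tributyrin (40.0% of the tested members), against 2.28% of all genes in that direction. No member was higher with an unadjusted p under 0.05, against 1.97% of all genes in that direction. In 4 of the 30 genes every Tributyrin library lay below every vehicle library (13.3%), against 4.65% of all genes in that direction, and in none did every Tributyrin library lie above, against 4.26%.

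These counts rest on a small number of mice. Of the members tested, none passed FDR 10% or 5% in DESeq2 without a prior or in limma-voom, but 8 passed FDR 10% in edgeR when no filter on low counts was applied (against 0.653% of all genes then tested). With a local dispersion trend and a prior in DESeq2 1 member passed FDR 10% (against 0.133%). The count of 12 was 4 with the summed atrial level as a covariate (against 1.42% of all genes). The mean atrial sum also differs between the groups, so this fit estimates a group difference less precisely. The standard error of *Col1a1* was 0.24 with the covariate and 0.17 without it, so the part of atrial tissue cannot be read from this count. With vehicle 3 alone against the Tributyrin libraries the median log2 fold change was -0.34. In that fit the Tributyrin libraries alone supply the spread and vehicle 3 is assumed to vary like them. The count was 16 without vehicle 1 (2.62% of all genes), 6 without vehicle 2 (1.71%) and 4 without vehicle 3 (1.52%). It was 5 without Tributyrin 1 (1.86%), 19 without Tributyrin 2 (4.85%) and 6 without Tributyrin 3 (2.48%). With a filter at a mean of 5 CPM (counts scaled to a common library total) it was 7 (1.89%).

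**Figure D1:**
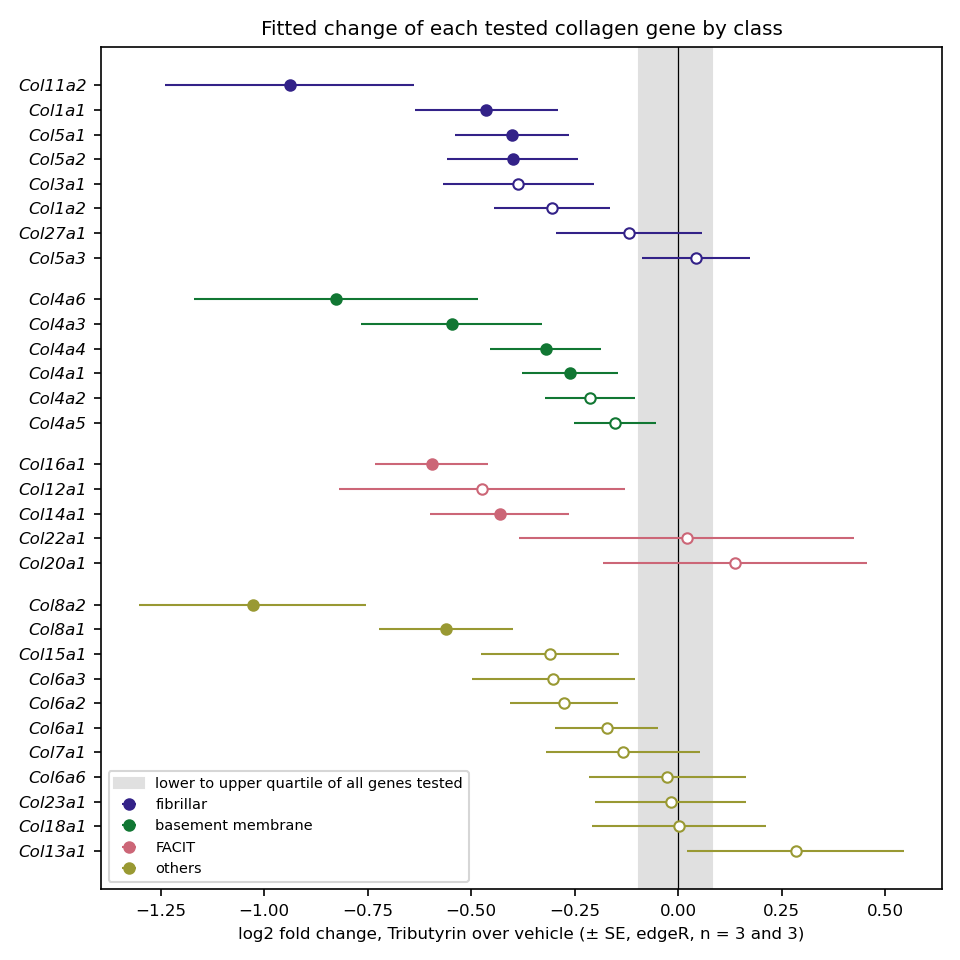
Fitted log2 fold change (Tributyrin over vehicle, x axis) of each of the 30 tested collagen genes, grouped by class, with bars of 1 standard error from edgeR (n = 3 and 3). Filled points have an unadjusted p under 0.05, and the grey band spans the lower to upper quartile of all genes tested (-0.10 to 0.08). Of the 30 points, 25 lie left of 0.

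Summed over the family, collagen transcripts stood at 37259, 45813 and 42749 normalized counts in vehicle 1, 2 and 3 and at 30614, 41675 and 31226 in Tributyrin 1, 2 and 3. The difference of the means was -17.7%. Tributyrin 1 and Tributyrin 3 lay below all vehicle libraries, while Tributyrin 2 lay inside the vehicle range. As a share of all counts on genes, collagens took 1417, 1805 and 1689 CPM with vehicle and 1143, 1589 and 1119 with Tributyrin. In ventricle homogenates a lower transcript level can come from fewer cells of a type or from less RNA per cell, and these cannot be told apart here.

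Levels of different genes were compared as normalized counts per kb of annotated exon. With vehicle, the highest level was that of *Col4a1* (1358 ± 163 per kb, SD, n = 3), followed by its partner chain *Col4a2* (1192 ± 94.1 per kb), and these neighbours in the order overlapped in range. The next level down was a group whose ranges also overlapped: the type III chain *Col3a1* (409 ± 75.6 per kb), the multiplexin *Col15a1* (399 ± 38.1), the type VI chain *Col6a1* (381 ± 43.7) and the type I chain *Col1a1* (358 ± 43.9). Below them came *Col6a2* at 252 ± 34.5, *Col1a2* at 223 ± 25.04 and *Col4a5* at 179 ± 18.3 per kb, where each gene overlapped its neighbour in range. With the length of the principal transcript in place of all annotated exons the top 3 genes kept their ranks, while *Col6a2* moved to rank 4 and *Col1a2* to rank 5.

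The classes took similar shares of the family in both groups. Of the summed per kb level, basement membrane chains made up 49.7% ± 1.1 (SD, n = 3) with vehicle and 51.1% ± 2.2 with Tributyrin. Fibrillar chains made up 23.5% ± 0.78 and 21.9% ± 1.7, FACIT chains 1.86% ± 0.10 and 1.69% ± 0.18, and the others 24.9% ± 0.78 and 25.3% ± 0.74. The ranges of the groups overlapped for every class, and basement membrane chains were the largest class in all 6 libraries. The shares depended on the length used. Per kb of the principal transcript, basement membrane chains made up 42.5% with vehicle and 43.9% with Tributyrin, and fibrillar chains 28.6% and 26.9%.

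**Figure D2:**
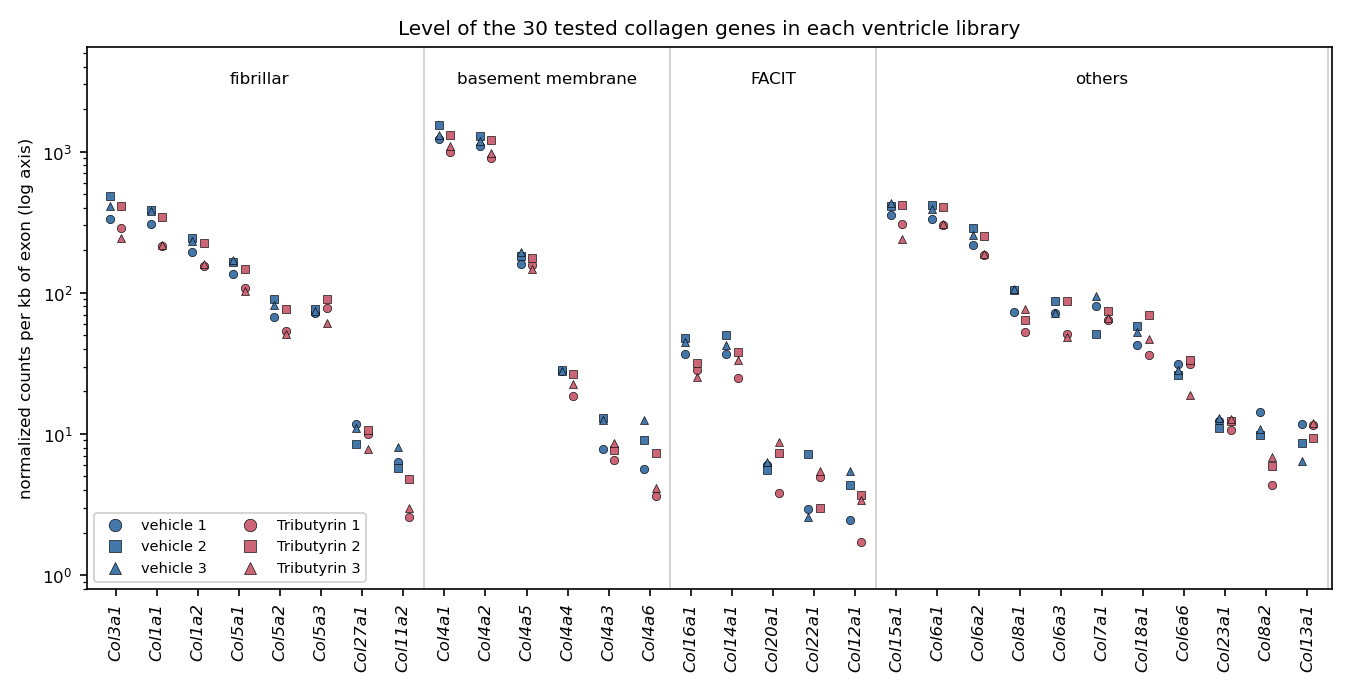
Normalized counts per kb of exon (y axis, log scale) of the 30 tested collagen genes in each of the 6 libraries, ordered within each class by the vehicle mean; every point is 1 library. *Col4a1* and *Col4a2* stand highest (vehicle means 1358 and 1192 per kb), *Col3a1* has the highest mean of the fibrillar genes (409), and the FACIT genes *Col16a1* (43.2) and *Col14a1* (43.1) are level, with overlapping ranges.

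Among the fibrillar collagens, 7 of the 8 tested genes had a fold change below 0 (against 50.4% of all genes tested). An unadjusted p under 0.05 was reached by 4, all lower (*Col1a1*, *Col5a1*, *Col5a2* and *Col11a2*, against 2.28% of all genes). The median log2 fold change was -0.39. The class sum was 10191, 13236 and 12391 normalized counts with vehicle and 8247, 11863 and 7726 with Tributyrin, a difference of -22.3% in the mean, with Tributyrin 2 inside the vehicle range.

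*Col1a1* (chromosome 11, 94936224 to 94953042, GRCm38) encodes the major chain of type I collagen, the main interstitial fibril. It was at 2018, 2530.2 and 2502 normalized counts with vehicle and at 1399, 2273 and 1430.5 with Tributyrin. The fitted log2 fold change was -0.46 (SE 0.17, unadjusted p = 0.0224), and Tributyrin 2 again lay inside the vehicle range. Its partner *Col1a2* (chromosome 6, 4504814 to 4541544) was at 2426, 3026 and 2867 with vehicle and at 1921, 2808 and 1999 with Tributyrin, with a log2 fold change of -0.30 (SE 0.14, unadjusted p = 0.0553). The order of the libraries matched that of *Col1a1* in the Tributyrin group, with Tributyrin 2 highest and Tributyrin 1 lowest.

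*Col3a1* (chromosome 1, 45311538 to 45349706), whose product forms homotrimers that mix with type I fibrils, stood at 3255, 4737 and 4066 with vehicle. With Tributyrin it stood at 2813, 4015 and 2389, a log2 fold change of -0.39 (SE 0.18, unadjusted p = 0.0593). Vehicle 1 was the lowest vehicle library for this gene and lay below Tributyrin 2.

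The type V chains nucleate fibrils and set their diameter. *Col5a1* (chromosome 2, 27886425 to 28039514) was at 1156, 1396 and 1454 with vehicle and at 914, 1243 and 871 with Tributyrin, and its log2 fold change was -0.40 (SE 0.14, unadjusted p = 0.0150). *Col5a2* (chromosome 1, 45374321 to 45503282), which lies tail to tail with *Col3a1* across a gap of 24614 bases, was at 643, 859.9 and 789 with vehicle and 515, 730.0 and 489 with Tributyrin, a log2 fold change of -0.40 (SE 0.16, unadjusted p = 0.0288). In both genes Tributyrin 1 and Tributyrin 3 were below every vehicle library and Tributyrin 2 was not. The third type V chain, *Col5a3*, did not share this pattern: it was at 489, 526 and 502 with vehicle and at 533, 610.4 and 415 with Tributyrin, a log2 fold change of 0.04 (SE 0.13, unadjusted p = 0.745) that was -0.02 when libraries were scaled by size alone and -0.09 without Tributyrin 2.

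*Col11a2*, a minor fibrillar chain best known from cartilage (chromosome 17, 34039437 to 34066685), was at 43.7, 39.5 and 55.9 normalized counts with vehicle and at 17.8, 32.9 and 20.6 with Tributyrin. Every Tributyrin library lay below every vehicle library, and the log2 fold change was -0.94 (SE 0.30, unadjusted p = 0.0105). Markers of cartilage and valve tissue are given beside it: their sum was 477, 315 and 410.0 with vehicle and 137, 291 and 357 with Tributyrin, with *Matn1* at 0 in every library and *Chad*, a matrix protein of cartilage, at 99.8, 44.97 and 138 with vehicle and 11.2, 15.5 and 72.3 with Tributyrin. Of the 6 markers, 4 were tested and 3 of these had a fold change below 0 (against 50.4% of all genes tested). Only *Chad* had an unadjusted p under 0.05 (lower, against 2.28%). Their part in the *Col11a2* difference was not tested. The other tested fibrillar gene, *Col27a1*, was at 153, 110.1 and 143 with vehicle and 130.0, 138 and 102 with Tributyrin (-0.12 on the log2 scale).

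All 6 type IV genes, which make up the basement membrane class, had a fold change below 0 (against 50.4% of all genes tested). Of them, 4 were lower with an unadjusted p under 0.05 (against 2.28%). The median log2 fold change was -0.29. The class sum was 17858, 21711 and 19559.8 normalized counts with vehicle and 14722, 19401 and 15945 with Tributyrin, a difference of -15.3% in the mean. Tributyrin 1 and Tributyrin 3 lay below the vehicle range, and Tributyrin 2 lay inside it.

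The type IV genes lie in head-to-head pairs. *Col4a1* (chromosome 8, 11198423 to 11312826, minus strand) and *Col4a2* (chromosome 8, 11312805 to 11449287, plus strand) overlap at their starts, *Col4a3* and *Col4a4* on chromosome 1 have starts 72 bases apart, and *Col4a5* and *Col4a6* on chromosome X have starts 1309 bases apart. The 22 exon bases that *Col4a1* and *Col4a2* share on opposite strands are shown because both genes with the highest transcript levels per kb in the family begin there:

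Col4a1 and Col4a2 starts, chr8:11312805-11312826, plus strand, GRCm38.p6: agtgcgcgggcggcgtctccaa

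*Col4a1* was at 9103, 11471 and 9823 normalized counts with vehicle and at 7388, 9811 and 8153 with Tributyrin. The log2 fold change was -0.26 (SE 0.12, unadjusted p = 0.0468). *Col4a2* was at 7266, 8512 and 7902 with vehicle and 5983, 7984 and 6443 with Tributyrin, with a log2 fold change of -0.21 (SE 0.11, unadjusted p = 0.0773). For both genes vehicle 2 was the highest and Tributyrin 1 the lowest of the 6 libraries.

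The remaining type IV chains form the specialised networks best known from glomerular and other epithelial basement membranes, and all 4 had lower means with Tributyrin (median log2 fold change -0.43). *Col4a4* (chromosome 1, 82448423 to 82586849) was at 296, 301 and 297 with vehicle and at 196, 281 and 239 with Tributyrin, without overlap, and its log2 fold change was -0.32 (SE 0.13, unadjusted p = 0.0373). The vehicle libraries lay close together for this gene, and Tributyrin 2 was the Tributyrin library nearest to them. *Col4a3* (chromosome 1, 82586921 to 82722059) was at 77.96, 129 and 125 with vehicle and 65.5, 76.8 and 86.03 with Tributyrin, a log2 fold change of -0.55 (SE 0.22, unadjusted p = 0.0306). *Col4a6* (chromosome X, 141165403 to 141474076) was at 44.7, 72.1 and 101 with vehicle and 28.99, 58.5 and 33.3 with Tributyrin, a log2 fold change of -0.83 (SE 0.34, unadjusted p = 0.0359). In *Col4a3* and *Col4a6* vehicle 1 was the lowest vehicle library and reached into the Tributyrin range. *Col4a5* (chromosome X, 141475385 to 141689234), the most abundant of these chains, was at 1069.6, 1227 and 1312 with vehicle and 1060.4, 1189.6 and 991 with Tributyrin, a log2 fold change of -0.15 (SE 0.10, unadjusted p = 0.153).

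**Figure D3:**
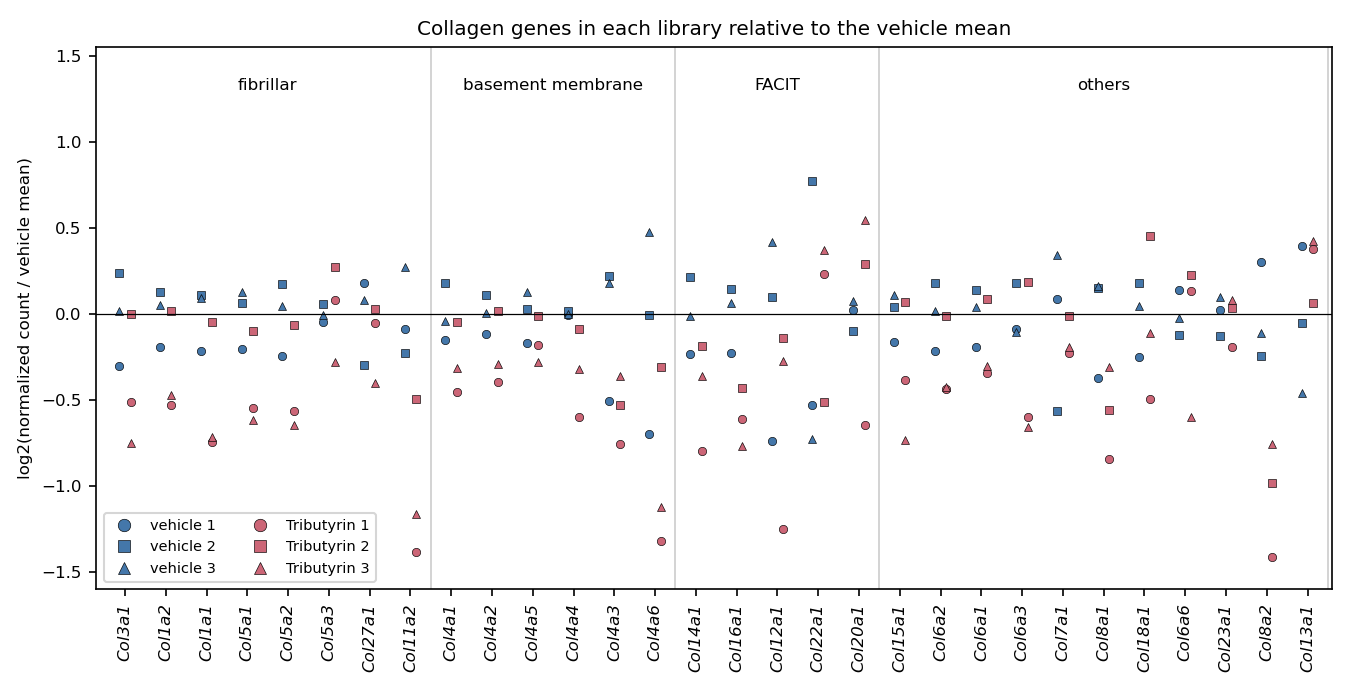
Log2 ratio of the normalized count in each library to the vehicle mean of the same gene (y axis) for the 30 tested collagen genes, by class; the line at 0 is the vehicle mean. Tributyrin 1 and Tributyrin 3 lie below the vehicle range for 24 and 21 genes, and Tributyrin 2 for 6.

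FACIT collagens held the member with the lowest unadjusted p of the family. *Col16a1* (chromosome 4, 130047840 to 130099283), whose product links fibrils to other matrix proteins, was at 248, 321 and 304 normalized counts with vehicle and at 191, 216 and 171 with Tributyrin. All 3 Tributyrin libraries lay below all 3 vehicle libraries. The fitted log2 fold change was -0.59 (SE 0.14, unadjusted p = 0.00133), with an adjusted p of 0.999 in edgeR. It was between -0.69 and -0.33 in every alternative, and the adjusted p was 0.0491 in DESeq2 with a local dispersion trend and a prior, 0.0059 in edgeR with no filter on low counts, and 0.236 or more in the other 16 alternatives.

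*Col14a1* (chromosome 15, 55307750 to 55520803), which regulates fibril growth, was at 257, 350.5 and 299 with vehicle and at 174, 265 and 235 with Tributyrin, a log2 fold change of -0.43 (SE 0.17, unadjusted p = 0.0276). Tributyrin 2 and vehicle 1 were the libraries that overlapped. *Col12a1*, a FACIT of tension-bearing tissue, was at 37.4, 66.7 and 83.2 with vehicle and 26.2, 56.6 and 51.6 with Tributyrin (log2 fold change -0.47, SE 0.35, unadjusted p = 0.199). The last tested FACIT genes had fold changes above 0 and small counts. *Col20a1* was at 31.2, 28.7 and 32.3 with vehicle and 19.6, 37.5 and 44.7 with Tributyrin (0.14 on the log2 scale), and part of its reads cannot be told apart from those of an annotated transcript that overlaps it on the same strand. *Col22a1*, known from muscle-tendon junctions, was at 27.02, 66.7 and 23.6 with vehicle and 45.8, 27.4 and 50.5 with Tributyrin (0.02), a direction that changed with the library left out and with scaling by library size alone. As a class, 3 of 5 tested FACIT genes had a fold change below 0 (against 50.4% of all genes tested). An unadjusted p under 0.05 was reached by 2, both lower (against 2.28%), and the median log2 fold change was -0.43. The class sum was 611, 851 and 757 with vehicle and 462, 616 and 566 with Tributyrin, a difference of -25.9% in the mean, with Tributyrin 2 just above vehicle 1.

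The class of others joins collagens of different structure. Of its 17 genes 11 were tested, and 9 had a fold change below 0 (against 50.4% of all genes tested). An unadjusted p under 0.05 was reached by 2, both lower (against 2.28%), and the median log2 fold change was -0.17. The class sum was 8598, 10015 and 10041 with vehicle and 7183, 9796 and 6989 with Tributyrin, a difference of -16.4% in the mean, with Tributyrin 2 inside the vehicle range. Both genes with an unadjusted p under 0.05 encode the short-chain network-forming type VIII collagen of vessel walls and subendothelial matrix.

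*Col8a1* (chromosome 16, 57624258 to 57754737) was at 574, 825 and 832 normalized counts with vehicle and at 413, 503 and 599 with Tributyrin. Its log2 fold change was -0.56 (SE 0.16, unadjusted p = 0.00594), and Tributyrin 3 overlapped vehicle 1. *Col8a2* (chromosome 4, 126286793 to 126314330) had the largest fitted difference of any tested member at a much lower level, 64.4, 44.2 and 48.5 with vehicle against 19.6, 26.5 and 30.97 with Tributyrin. No Tributyrin library reached a vehicle library, and the log2 fold change was -1.03 (SE 0.27, unadjusted p = 0.00358). These values rested on 62, 57 and 39 counts with vehicle and 21, 29 and 27 with Tributyrin, where counting error alone is 21.8% in the library with fewest counts, against 4.76% for *Col8a1*. In contrast to most members, Tributyrin 2 was not the highest Tributyrin library for either gene.

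The bases before the RefSeq starts of the type VIII pair are shown as the promoters of the chains of 1 network with the largest differences in the class (GRCm38.p6, each read in the direction of its gene; capitals mark the GC box GGGCGG on either strand, which reads CCGCCC on the other strand, and capitals run on where matches overlap):

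Col8a1, chr16:57754738-57754987, minus strand: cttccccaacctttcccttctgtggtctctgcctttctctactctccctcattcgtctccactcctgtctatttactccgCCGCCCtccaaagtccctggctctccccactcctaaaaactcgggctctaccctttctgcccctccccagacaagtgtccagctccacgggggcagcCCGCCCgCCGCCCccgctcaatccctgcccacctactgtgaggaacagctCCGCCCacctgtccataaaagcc

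Col8a2, chr4:126286544-126286792, plus strand: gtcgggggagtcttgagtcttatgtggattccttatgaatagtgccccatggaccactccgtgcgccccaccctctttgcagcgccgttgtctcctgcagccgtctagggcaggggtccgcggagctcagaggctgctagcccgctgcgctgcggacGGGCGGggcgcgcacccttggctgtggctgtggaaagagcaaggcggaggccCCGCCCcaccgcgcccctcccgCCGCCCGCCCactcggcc

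Each of the windows held 4 matches to the GC box. RefSeq promoter windows were given for 34 of the 43 members (37 windows). In the 250 bases before the start, GGGCGG on either strand was in 59.5% of the collagen windows and in 32.7% of all 32851 windows. CCAAT was in 35.1% and 33.8%, and TATAAA in 13.5% and 12.4%. These are descriptions of letters in a window and not of binding.

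Type VI collagen forms beaded microfilaments that join the basement membrane to the interstitium. *Col6a1* was at 1458, 1833 and 1714 normalized counts with vehicle and at 1316, 1767 and 1354 with Tributyrin (log2 fold change -0.17, SE 0.12, unadjusted p = 0.192). *Col6a2* was at 1804, 2378 and 2122 with vehicle and 1552, 2085 and 1566 with Tributyrin (log2 fold change -0.28, SE 0.13, unadjusted p = 0.0613), and *Col6a3* at 866, 1041 and 855 with vehicle and 607, 1047 and 582 with Tributyrin (log2 fold change -0.30, SE 0.20, unadjusted p = 0.156). For all 3 chains Tributyrin 2 lay inside or above the vehicle range and the other Tributyrin libraries below it. *Col6a6* had a log2 fold change of -0.03.

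The multiplexin *Col15a1*, a basement membrane zone collagen of heart and skeletal muscle, was at 2262, 2602 and 2729.5 with vehicle and at 1938, 2653 and 1521 with Tributyrin (log2 fold change -0.31, SE 0.17, unadjusted p = 0.0925). The other multiplexin, *Col18a1*, from which endostatin is cut, was at 301, 406 and 371 with vehicle and 255, 492 and 333 with Tributyrin, with a log2 fold change of 0.00 (SE 0.21), whose sign differed between alternatives. The anchoring fibril gene *Col7a1* was at 823, 523 and 980.2 with vehicle and 661, 769 and 677 with Tributyrin (-0.13 on the log2 scale), with vehicle 2 the lowest of all 6 libraries. The membrane-bound collagens *Col13a1* (54.05, 39.5 and 29.8 with vehicle and 53.3, 42.9 and 55.1 with Tributyrin, 0.28 on the log2 scale) and *Col23a1* (-0.02) overlapped between the groups.

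The other 13 members were below the filter and were not tested. *Col6a4* had no count in any library, which allows up to 3 counts, or 0.0916 to 0.147 CPM. The chains *Col2a1*, *Col9a1*, *Col10a1*, *Col19a1*, *Col24a1*, *Col6a5* and *Col17a1* had 1 to 19 counts over all libraries. *Col9a3*, *Col11a1*, *Col9a2*, *Col26a1* and *Col25a1* had 25 to 62. Among these *Col26a1* was at 14.6, 9.30 and 9.94 normalized counts with vehicle and 4.68, 7.31 and 3.44 with Tributyrin, and *Col25a1* at 8.32, 6.98 and 4.97 with vehicle and 6.55, 13.7 and 21.8 with Tributyrin, levels at which a few reads set the difference. These limits cover counting error only.

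The tested members were not independent of each other, since a mouse that was high for one was often high for many. Tributyrin 2 was the highest Tributyrin library for 23 of the 30 genes and Tributyrin 1 the lowest for 18. Among the vehicle libraries, vehicle 1 was lowest for 20 genes and vehicle 2 highest for 16. The median log2 ratio of the 30 genes to the vehicle mean was -0.52 in Tributyrin 1, -0.01 in Tributyrin 2 and -0.36 in Tributyrin 3. Tributyrin 1 lay below the vehicle range for 24 of the 30 genes, Tributyrin 3 for 21 and Tributyrin 2 for 6, against 28.3%, 30.3% and 26.5% of all genes tested.

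Ratios between chains were compared within each library, per kb of exon. *Col1a1* to *Col1a2* was 1.57, 1.58 and 1.65 with vehicle and 1.38, 1.53 and 1.35 with Tributyrin, without overlap. The difference in mean log2 ratio was -0.18 (p = 0.10, two-sided exact permutation test, adjusted p = 0.20 over 4 ratios), and 0.10 is the smallest p that 3 against 3 allows. *Col6a1* to *Col6a2* was 1.54, 1.47 and 1.54 with vehicle and 1.61, 1.61 and 1.64 with Tributyrin, a difference of 0.10 (p = 0.10, exact permutation test, adjusted p = 0.20). The ratio of *Col1a1* to *Col3a1* differed by -0.09 (p = 0.50, exact permutation test, adjusted p = 0.50) and that of *Col4a1* to *Col4a2* by -0.04 (p = 0.40, exact permutation test, adjusted p = 0.50). The size of a ratio depended on the length used, since *Col1a1* to *Col1a2* was 1.60 in the vehicle mean per kb of all exons and 0.764 per kb of the principal transcript.

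Genes that modify, export, trim and cross-link collagen were read from the same fit. Of 33 genes 32 were tested, with 20 below 0 (against 50.4% of all genes tested) and 12 above. An unadjusted p under 0.05 was reached by 6, all lower with Tributyrin (18.8%, against 2.28% of all genes). The median log2 fold change was -0.07. The lysyl oxidases, which cross-link secreted collagen, were the role with the lowest median in this list (-0.47). Of these 5, 4 were below 0 (against 50.4% of all genes tested) and 3 were lower with an unadjusted p under 0.05 (against 2.28%). *Loxl2* was at 314, 409 and 333 with vehicle and at 234, 236 and 245 with Tributyrin (log2 fold change -0.57, SE 0.12, unadjusted p = 0.000793), *Loxl3* at 135, 116 and 129 with vehicle and 89.8, 102 and 74.6 with Tributyrin (log2 fold change -0.50, SE 0.17, unadjusted p = 0.0123), and *Loxl1* at 1143, 1286 and 1219 with vehicle and 981, 1112 and 821 with Tributyrin (log2 fold change -0.32, SE 0.11, unadjusted p = 0.0135). In these 3 genes no Tributyrin library reached a vehicle library, Tributyrin 2 included (against 4.65% of all genes in that direction). Over the 32 tested genes of the list 6 were separated in that direction. In 3 others, *Fkbp10*, *Mia2* and *Mia3*, every Tributyrin library lay above every vehicle library (against 4.26% of all genes). *Lox* itself had a log2 fold change of 0.12.

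Of 8 enzymes and enhancers that remove propeptides, 6 were below 0 (against 50.4% of all genes tested). An unadjusted p under 0.05 was reached by 2, both lower (against 2.28%). *Adamts2*, the main N-propeptidase, was at 519.7, 743 and 666 with vehicle and at 415, 536 and 468 with Tributyrin (log2 fold change -0.44, SE 0.14, unadjusted p = 0.00983), with Tributyrin 2 above vehicle 1. The C-propeptidase *Bmp1* was at 689, 681 and 681 with vehicle and 561, 607 and 609 with Tributyrin (log2 fold change -0.21, SE 0.08, unadjusted p = 0.0249), without overlap. Among 9 tested genes of prolyl hydroxylation 5 were below 0, near the share of 50.4% of all genes tested. Only *P3h2* had an unadjusted p under 0.05 and was lower (against 2.28%, log2 fold change -0.39, SE 0.17, unadjusted p = 0.0452). The chaperone *Serpinh1*, at a mean of 5292 with vehicle and 5257 with Tributyrin, and *P4hb*, at 5325 and 5398, differed by less than the spread between mice. None of these genes passed FDR 10% in edgeR (adjusted p = 0.999).

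Of 20 collagen receptor and turnover genes 18 were tested, 15 were below 0 (against 50.4% of all genes tested), 2 had an unadjusted p under 0.05, both lower (against 2.28%), and the median was -0.12. These were the inhibitor of matrix metalloproteinases *Timp2* (3101, 3419 and 3298 with vehicle, 2558, 3138 and 2702 with Tributyrin, log2 fold change -0.22, SE 0.09, unadjusted p = 0.0283) and the integrin *Itga10* (19.7, 33.3 and 17.4 with vehicle and 9.35, 11.9 and 18.4 with Tributyrin, log2 fold change -0.88, SE 0.39, unadjusted p = 0.0462). The 2 most abundant genes of the list were *Itgb1* (0.01) and *Timp3* (-0.18). Of 15 genes of TGF-beta signalling and its fibrotic targets 12 were below 0 (against 50.4% of all genes tested), with a median of -0.14, and 1 had an unadjusted p under 0.05 and was lower (against 2.28%), a single gene from which nothing is read about the list. This was *Cilp*, a matrix protein of activated fibroblasts, at 257, 366 and 567 with vehicle and 209, 293 and 275 with Tributyrin (log2 fold change -0.60, SE 0.25, unadjusted p = 0.0328). *Postn* was at 446, 848 and 1067 with vehicle and 396, 597 and 641 with Tributyrin (log2 fold change -0.53, SE 0.27, unadjusted p = 0.0781), with the widest spread in the vehicle group.

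Markers of the cells that make collagen were summed in the same libraries. The sum of 10 fibroblast markers was 59224, 61373 and 57797 normalized counts with vehicle and 53456, 65409.5 and 59019 with Tributyrin, a difference of -0.285% in the mean. The groups overlapped, Tributyrin 1 was the lowest and Tributyrin 2 the highest of the 6 libraries, and no marker was at 0. This sum is weighted to its most abundant gene, *Gsn*, with means of 37732 with vehicle and 38285 with Tributyrin. The means of the whole sum were 59465 and 59295, so it says little about the less abundant markers. *Dcn* was at 12269, 12472 and 12675 with vehicle and 11724, 13354 and 12445 with Tributyrin, and *Pdgfra* at 1109, 1000.3 and 1117 with vehicle and 1078, 1196 and 927 with Tributyrin. Within this list 5 genes were below 0 and 5 above, near the share of 50.4% below 0 over all genes tested. *Lum*, a proteoglycan of collagen fibrils (log2 fold change -0.31, SE 0.08, unadjusted p = 0.00257), *Mfap5* (log2 fold change -0.49, SE 0.19, unadjusted p = 0.0285) and *Pi16* (log2 fold change -0.44, SE 0.18, unadjusted p = 0.0376) were lower with an unadjusted p under 0.05, and *Scara5* was higher (log2 fold change 0.20, SE 0.09, unadjusted p = 0.0460). The shares over all genes tested were 2.28% lower and 1.97% higher. Of 5 tested markers of activated fibroblasts 4 were below 0 (against 50.4% of all genes tested) and none had an unadjusted p under 0.05. Their sums were 4043 to 5883 with vehicle and 2878 to 5958 with Tributyrin. These sums are weighted to *Acta2*, which is also in the smooth muscle list. Its means were 2959 with vehicle and 3189 with Tributyrin, in sums with means of 4964 and 4809.

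Sums of the other lists are given in ranges. The 8 endothelial markers summed to 24933 to 25743 with vehicle and 25882 to 28537 with Tributyrin. Their fold changes were above 0 in 5 and below 0 in 3 (against 50.4% of all genes tested below 0), with a median log2 fold change of 0.04. The 1 that was higher with an unadjusted p under 0.05 was *Fabp4*, which weighs heavily in the sum. It was at 8178, 8206 and 7838 with vehicle and at 9293, 8595 and 11433 with Tributyrin. The 8 smooth muscle and pericyte markers summed to 30638 to 31419.7 and 30817 to 35068. Of these, *Myh11* and *Cnn1* were higher with an unadjusted p under 0.05. The 8 cardiomyocyte markers summed to 1423542 to 1461830.3 and 1377957 to 1491769 (*Tnnt2*, *Tnni3* and *Pln* higher and *Actc1* lower). The 6 macrophage markers summed to 3381 to 4256 and 3253 to 4217 (none). Over all genes tested, 1.97% were higher and 2.28% lower with an unadjusted p under 0.05. Epicardial markers summed to 284 to 651 and 393 to 550.0, Schwann cell markers to 217 to 274 and 228 to 284 and red cell markers to 12905 to 18285 and 10039 to 24730.3, none with an unadjusted p under 0.05. No adipocyte marker passed the filter. The part of these cell types in the collagen differences was not tested.

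The mean atrial sum, like the mean collagen sum, was lower with Tributyrin. In the Tributyrin group both sums were highest in Tributyrin 2 and lowest in Tributyrin 1, while among the vehicle libraries the atrial sum was highest and the collagen sum lowest in vehicle 1. Within the atrial sum, *Nppa* was at 295 in Tributyrin 1 and 731 in Tributyrin 3, while *Myl4* and *Sln* were lower in Tributyrin 3. The part of atrial tissue in the collagen differences was not tested beyond the alternatives that follow. With that sum as a covariate in edgeR the median log2 fold change of the collagen genes tested was -0.22, and *Col8a1*, *Col11a2*, *Col16a1* and *Col4a6* had an unadjusted p under 0.05. With vehicle 3 as the only vehicle library the median was -0.34. The atrial sum of vehicle 3 was near those of the Tributyrin group, but *Nppa* made up 1046 of its 1414 normalized counts. *Myl7*, *Myl4*, *Sln* and *Mybphl* were each lower in vehicle 3 than in any Tributyrin library. The covariate is the same sum and carries the same weight of *Nppa*.

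**Figure D4:**
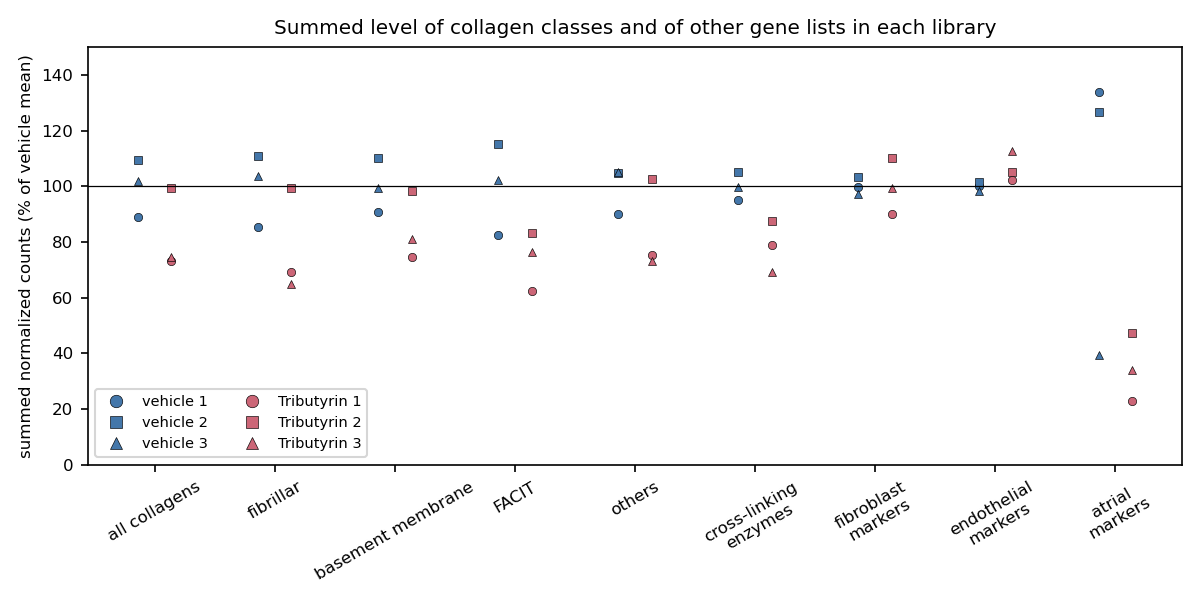
Summed normalized counts of the collagen family, its classes and other gene lists in each library, as a percentage of the vehicle mean (y axis, from 0); every point is 1 library and the line marks the vehicle mean. Collagen sums of Tributyrin 1 and Tributyrin 3 lie below all vehicle libraries while fibroblast marker sums overlap, and the atrial sum is high in vehicle 1 and vehicle 2. The fibroblast marker sum is weighted to *Gsn*, with a vehicle mean of 37732 in a sum of 59465.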

How the data were processed

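Ventricle RNA libraries of 3 Tributyrin and 3 vehicle treated WD-fed mice were grouped by their labels. The authors deposited raw counts of reads per Ensembl gene for each library, without normalization. The submitters' processing notes name cutadapt 1.13, STAR (version not given), HTSeq 0.6.1p1 and DESeq2 1.14.1 with mm10, and the methods state that libraries were stranded and that reads were trimmed and filtered before alignment. For the counting step, neither annotation release nor strand option is stated in the sources used here, so reads of genes that overlap on opposite strands may be mixed. No line of the count tables names no gene (0 such lines), and no per-sample column was left unused (0).

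Gene names, positions and exon lengths came from GENCODE M21 (GRCm38) by Ensembl identifier (54165 of 54232 matched). Library sizes were 20369746 to 32734485 counts, and deeper libraries have less counting error. Counts were tested in edgeR 4.0.16 (R 4.3.3) with TMM scaling, the filterByExpr filter (minimum count 10, minimum total 15), the quasi-likelihood test without covariates and Benjamini-Hochberg adjustment over 14133 genes. Thresholds were an FDR of 10% and of 5%, and an unadjusted p under 0.05 was counted as a description. Standard errors were derived from the fold change and the test statistic. Normalized counts are counts divided by DESeq2 1.42.0 size factors. The edgeR p-values set a group difference against a variance between mice that is moderated across genes (prior degrees of freedom 6.31). No pair of libraries agreed within sampling noise. The steps were tested on simulated data.

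Alternatives were other scalings and filters, DESeq2, limma-voom (limma 3.58.1), a robust prior, the replicate number as a block, leaving out each mouse, and, added after the data were seen, the atrial sum as a covariate, vehicle 3 alone, and principal-transcript lengths. Tables used pandas 2.3.3 and numpy 2.4.6 in Python 3.11.15, and figures matplotlib 3.10.9.

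All members were accounted for. Values in every library were given for members with an unadjusted p under 0.05, the 3 members with the most normalized counts per kb in each class, and the chains of the ratios. Of other lists they were given for part of the genes with an unadjusted p under 0.05 and part of the most abundant ones. *P3h2*, *Lum*, *Mfap5*, *Pi16* and *Scara5* were given by fold change only. For the atrial, smooth muscle and cardiomyocyte genes with an unadjusted p under 0.05, values in every library were left out. They enter through sums, counts and comparisons of libraries. *Chad*, *Dcn*, *Pdgfra*, *Postn*, *Nppa*, *Fkbp10*, *Mia2*, *Mia3*, *Ddx3y*, *Xist* and further members were named outside this rule after their values were seen. The members and lists were chosen with earlier results of these data known. Protein sequences were not analysed here, nor was 1 further collagen gene.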

Additional observations from a re-analysis of the deposited data

How the results depend on the processing

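The 12 collagen genes with an unadjusted p under 0.05 had fold changes below 0 in every alternative run for them (up to 18), and 21 of the 30 tested genes kept their sign throughout. The 12 were chosen by p in these libraries, and every alternative refits all or part of the same libraries. A kept sign is therefore not independent evidence, and the share of all genes that keep theirs is not given here. At an FDR of 10%, 8 members passed in edgeR with no filter on low counts and 1 (*Col16a1*) passed in DESeq2 with a local trend and a prior. At 5% these counts were 6 and 1. No member passed in the other alternatives. Without the filter the prior degrees of freedom of the quasi-likelihood model were infinite, against 6.31 with it. With vehicle 3 alone, where the vehicle spread is not measured and the Tributyrin libraries alone supply it, the median log2 fold change was -0.338. Lower genes with an unadjusted p under 0.05 numbered 7 with a mean CPM of at least 5 and 4 with the atrial covariate. Leaving out 1 mouse gave 4 (without vehicle 3) to 19 (without Tributyrin 2), with 16 without vehicle 1. Higher genes numbered 0 to 1 (*Col25a1*, without Tributyrin 1, against 1.88% of all genes). *Col25a1* is not among the 30 tested genes. It passed the filter of that fit only through Tributyrin 2 and 3 (15 and 19 counts), with 8, 9 and 4 counts with vehicle. Nothing is read from this gene. Genes whose groups do not overlap numbered 4 to 18 when 1 mouse was left out (18 without Tributyrin 2, against 13.0% of all genes, and 17 without vehicle 1, against 10.2%). The median log2 fold change was -0.0838 in DESeq2 with a prior and -0.0837 with the local trend too, where the prior shrinks fold changes by construction, and -0.502 to -0.19 when 1 mouse was left out. The mean class sums stayed lower with Tributyrin in all of these (fibrillar -33.1% to -15.8%, basement membrane -22.2% to -10.3%, FACIT -31.9% to -19.9%, others -25.8% to -11.1%). Scaling by library size alone put the median of all genes at -0.0736. For reversals the cause was not tested.

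Signs reversed in 9 genes, none with an unadjusted p under 0.05. With library size alone the log2 fold change was -0.0248 for *Col5a3*, -0.0691 for *Col18a1* and -0.0583 for *Col22a1*. With the atrial covariate it was 0.00802 for *Col6a3* and 0.0158 for *Col6a6*. For *Col18a1* it was also -0.000552 with DESeq2-type factors in edgeR, -0.00192 with a mean CPM of at least 5, -0.0448 in limma-voom and -0.047 with vehicle 3 alone. Leaving out 1 mouse gave -0.0901 to 0.183 for *Col5a3*, -0.177 to 0.187 for *Col6a6*, -0.358 to 0.07 for *Col7a1*, -0.299 to 0.205 for *Col18a1*, -0.0925 to 0.425 for *Col20a1*, -0.22 to 0.687 for *Col22a1*, -0.085 to 0.0671 for *Col23a1* and -0.256 to 0.000925 for *Col27a1*.

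The labels state no pairing of same-numbered mice of the groups, and whether they were paired is not known. Deviations of same-numbered mice correlated at 0.214, 0.0375 and 0.0147. The value of 0.214, for the mice numbered 1, was the highest of all pairs, while vehicle 2 correlated best with Tributyrin 3 (0.152). With a replicate block 18 members were lower with an unadjusted p under 0.05 (against 2.9% of all genes), none passed FDR 10%, the median was -0.324 and *Col18a1* was at -0.027. Of the list genes named, *Adamts2*, *Cilp*, *Lum*, *Mfap5* and *Pi16* each passed FDR 10% in 1 of 18 alternatives, and *Loxl2* in 2 of 18. The share of all genes that passed was at most 0.653% in any alternative, in edgeR with no filter on low counts. These counts take the most favourable of the alternatives, and nothing is read from them.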
